A study of Monodelphis domestica with 2 samples.

Results

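Solute carriers are membrane proteins that move small molecules across the plasma membrane or the membranes of organelles. Their genes were followed through the nuclei of opossum primary visual cortex (V1). The genes were chosen by name: every gene whose symbol starts with SLC and a digit, or with SLCO, was taken, apart from SLC32A1 and SLC1A3. This gave 272 genes of 30800 in the gene models, of which 11590 carried a symbol. A gene without a symbol cannot be reached in this way, so family members such as SLC17A7 and SLC17A8 were not analysed here. SLC2A4RG and SLC4A1AP share the name but encode a regulator and an adaptor protein, not transporters.

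In cortex, solute carriers clear glutamate and GABA from the extracellular space, fill synaptic vesicles, set the chloride and bicarbonate gradients on which inhibitory currents depend, and bring in glucose, lactate, amino acids, metals and thyroid hormone. Textbook accounts of the mammalian cortex divide these tasks among neurons, astrocytes, oligodendrocytes, microglia and the endothelium of the blood-brain barrier. The families are numbered by sequence similarity, so members of 1 family can carry different substrates.

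Nuclei came from V1 of 2 adult male gray short-tailed opossums (Monodelphis domestica, a marsupial), aged 1.5 years (animal 1) and 2 years (animal 2). Both animals belong to 1 untreated group, and each suspension of sorted nuclei was loaded as 2 droplet-based single-nucleus libraries, 4 in all. Both hemispheres of an animal were pooled, the tissue had been kept frozen, and a different experimenter handled each animal, so animal, age and handling cannot be told apart. The 32764 nuclei with a deposited subclass label fell into 8 glutamatergic subclasses (IT_A, IT_B, IT_C, IT_D, L5NP, L5PT, L6CT and L6b), 5 GABAergic subclasses (Frem1, Lamp5, Pvalb, Sst and Vip) and 5 non-neuronal subclasses (astrocytes, Astro; endothelial cells, Endo; microglia, Micro; oligodendrocytes, OD; and oligodendrocyte precursor cells, OPC).

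Unique molecular identifiers (UMIs), which count captured transcripts, were summed over the nuclei of each subclass in each animal and expressed per 1000000 UMIs of that sum (CPM). The 4 libraries held 7055 to 9664 labelled nuclei each, and any pair of them shared 13 to 26 barcodes. A sum held from 29 endothelial nuclei (48514 UMIs) in animal 1 upwards. A single UMI was therefore worth 20.6 and 17.3 CPM in the endothelium of animals 1 and 2, and endothelial values are given with their UMIs. With library totals scaled by TMM, endothelial means of the solute carriers were 1.63- to 1.69-fold lower. Oligodendrocyte markers summed to 17.3 to 489.5 CPM outside oligodendrocytes, against 13245 and 13358.5 CPM within them, and their part in low values of oligodendrocyte genes elsewhere was not tested. Defining markers of astrocytes, oligodendrocytes, precursors, microglia and endothelium were each highest in their own subclass in both animals. So were 1 of 3 markers for L5NP, 2 of 3 for L6CT and 1 of 2 for Sst, whereas those for Pvalb carried no symbol. The markers for L5PT (0 of 3), L6b (0 of 2) and Frem1 (0 of 1) were not, and FREM1 itself stood at 50.8 and 73.8 CPM in Frem1 against 59.0 and 76.8 CPM in Lamp5. Pairs of values below are animal 1, then animal 2. The labels were made from these same transcripts, so differences between subclasses are not independent of how the subclasses were drawn. The 2 animals are the replicates of every test.

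Taken as a sum over all 272 genes, solute carrier transcripts made up the largest share in astrocytes. Astrocytes held 27020 and 25559 CPM, oligodendrocytes 17634 and 17387 CPM, and microglia 13606 and 13619 CPM. Neuronal subclasses ranged from 8610 CPM in IT_A to 12660 CPM in Pvalb. In astrocytes 57.5% of the sum was 1 gene, SLC1A2, and without it the astrocyte sum was 11566 and 10769 CPM, inside the neuronal range. In oligodendrocytes SLC24A2 gave 21.6% and SLC44A1 18% of the sum, in microglia SLC24A4 gave 13.1% and SLCO2B1 11.4%, and in endothelium SLC39A10 gave 19.2%.

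**Figure D1:**
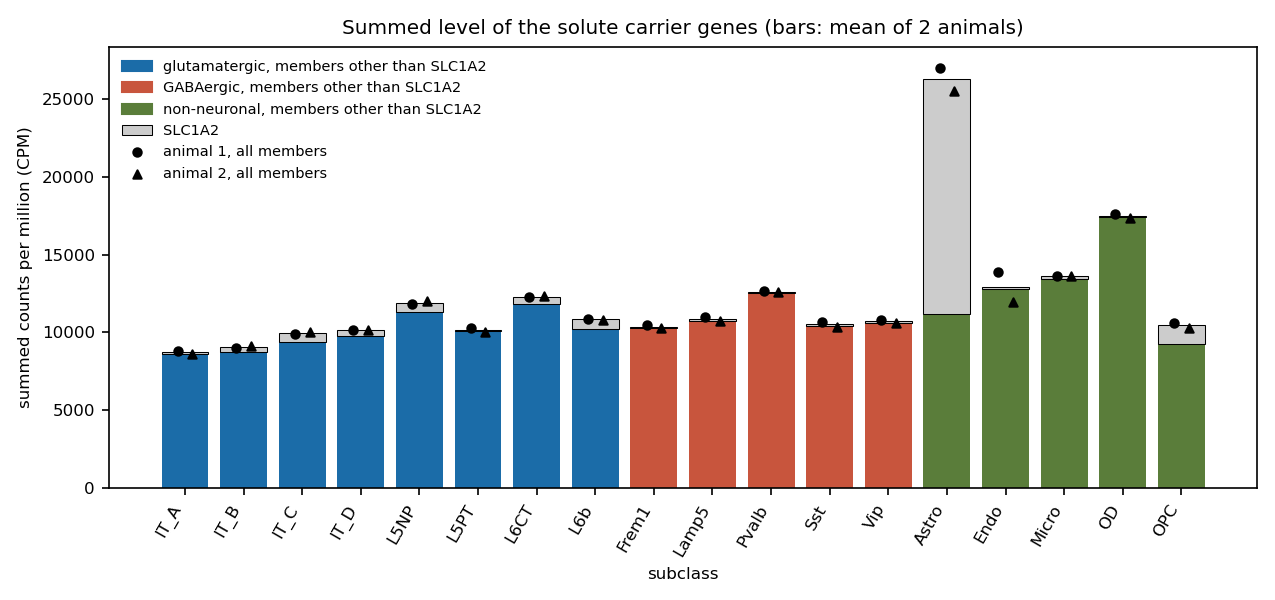
Summed level of the 272 solute carrier genes in each of the 18 subclasses, in CPM. Bars are the mean of 2 animals, points the animals, and the grey part of each bar is SLC1A2, which lifts the astrocyte bar to 27020 and 25559 CPM and leaves 11566 and 10769 CPM without it.

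Transcripts were found for all but 2 of the genes, SLC16A11 and SLC16A13. At least 20 CPM in the highest subclass was reached in both animals by 148 genes, and 101 of these had the same highest subclass in both animals. The highest subclass was non-neuronal for 92 (62.2%), GABAergic for 32 (21.6%) and glutamatergic for 24 (16.2%). The shares over all 9943 genes at that level were 62.7%, 17.5% and 19.8%. Microglia were highest for 27 genes, endothelium for 21, astrocytes for 20, oligodendrocytes for 19, Pvalb for 11 and Lamp5 for 10. Astrocytes were highest for 13.5% of the solute carriers and 9.73% of all genes, oligodendrocytes for 12.8% and 10.4%, and Pvalb for 7.43% and 5.09%. Lamp5 was highest for 6.76% and 3.33%, microglia for 18.2% and 19.9%, and endothelium for 14.2% and 17.9%. These shares were not tested against each other. More than 50% of a gene's summed CPM lay in a single subclass for 22 solute carriers, or 14.9%, against 11.5% of all genes. All 22 lay in non-neuronal subclasses, as did 90% of all genes of that kind.

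**Figure D2:**
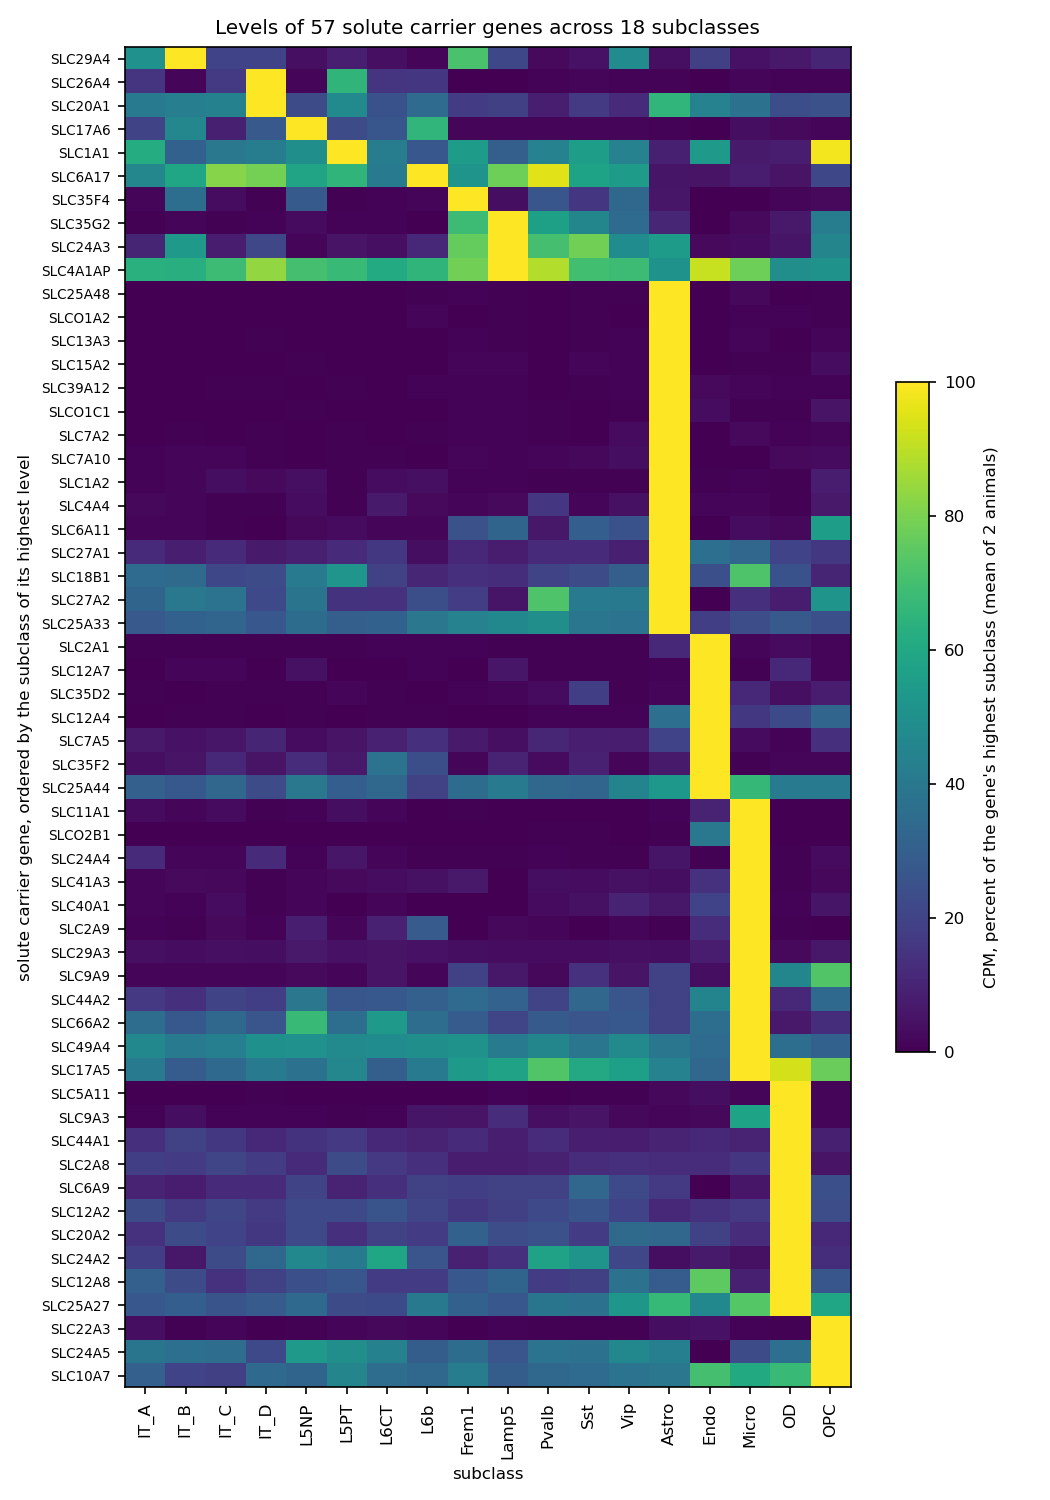
Solute carrier genes by subclass, each gene scaled to 100% in its highest subclass (mean CPM of 2 animals). The 57 genes are up to 4 from each functional list, chosen for the largest share of their summed CPM in 1 subclass, so narrow patterns such as SLC5A11 in OD and SLC24A4 in Micro were selected for.

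The first comparison set the 3 classes against each other with edgeR's quasi-likelihood test on the sums of each animal. Between glutamatergic and GABAergic neurons, 94 of 234 solute carriers tested passed an adjusted p of 0.05, and 32.9% of all genes tested did. Of the 94, 39 were higher and 55 lower in glutamatergic neurons. The corresponding shares of all genes were 17.1% higher and 15.8% lower. With the animal as a block 122 of the 234 solute carriers passed, beside 44.1% of all genes. The median log2 fold change, glutamatergic over GABAergic, was -0.15 over the solute carriers and -0.0014 over all genes. Between neurons and non-neuronal cells, 173 of 234 passed, beside 61.2% of all genes. Of these, 84 were higher in neurons (all genes 30.4%) and 89 lower (30.8%). Here the neuronal side was the mean of the log levels of both neuronal classes. In a class sum, fewer nuclei of a subclass and less of its RNA per nucleus cannot be told apart.

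**Figure D3:**
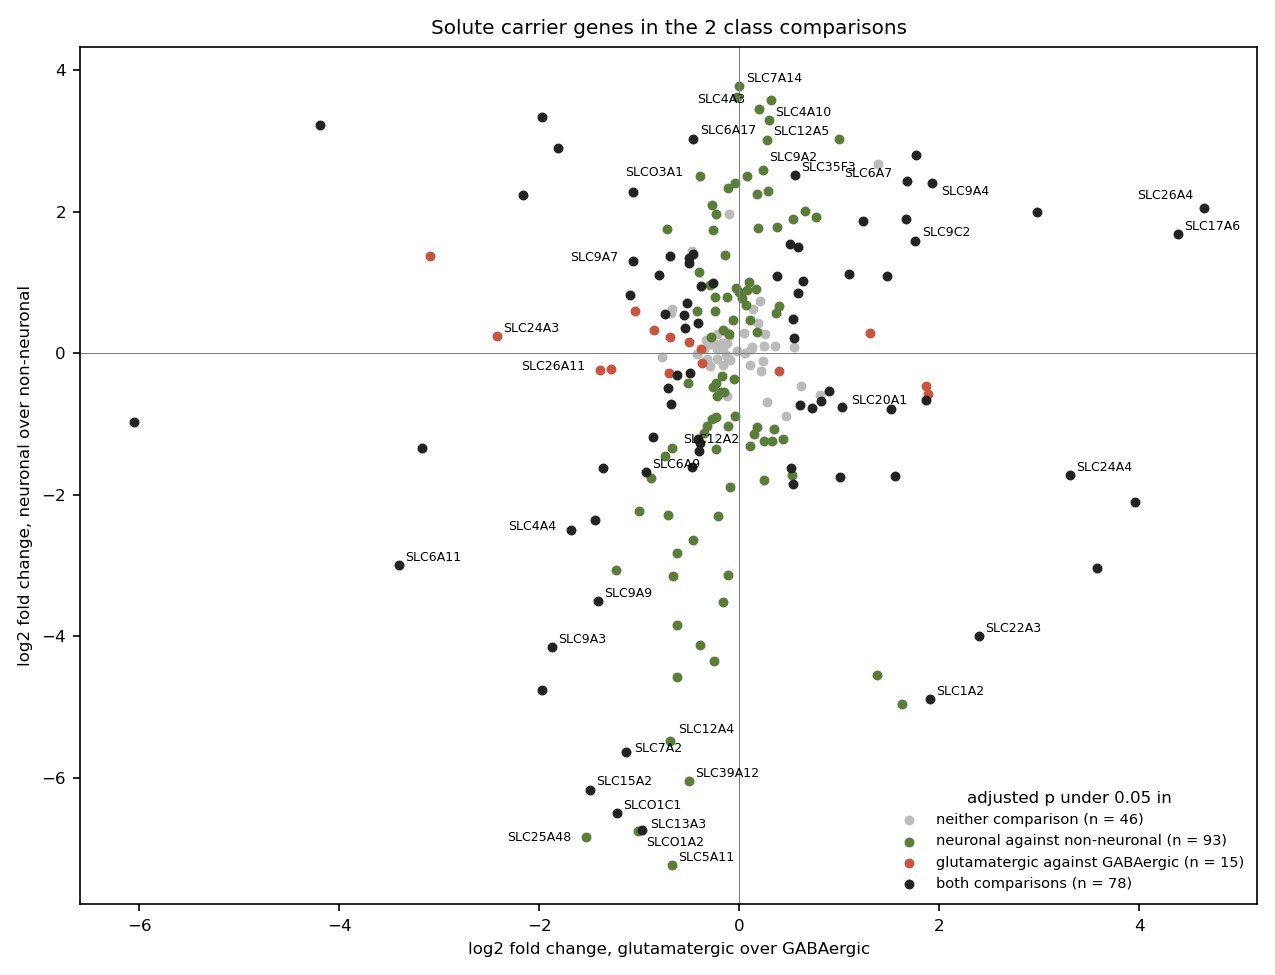
Log2 fold changes of 232 of the tested solute carrier genes, glutamatergic over GABAergic neurons (x axis) and neuronal over non-neuronal cells (y axis), 2 animals. Colours show in which comparison the adjusted p (edgeR) was under 0.05: 78 genes in both, 93 in neuronal against non-neuronal alone, 15 in glutamatergic against GABAergic alone and 46 in neither; SLC6A11, SLC5A11, SLC17A6 and SLC26A4 lie far from the origin.

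Vesicular transporters load transmitter into synaptic vesicles. SLC17A6 (VGLUT2), a vesicular glutamate transporter that in cortex is best known from the endings of thalamic axons, was measured at 25.1 and 24.9 CPM in glutamatergic and at 1.44 and 1.16 CPM in GABAergic neurons. All glutamatergic values lay above all GABAergic ones, with a log2 fold change of 4.38 (SE 0.18, adjusted p = 4.0e-06). Within the glutamatergic class it was uneven. L5NP held 90.9 and 103 CPM, L6b 56.3 and 71.4 CPM, IT_B 42.9 and 46.8 CPM, and IT_C only 9.04 and 8.39 CPM. L5NP stood above the mean of the other glutamatergic subclasses (log2 fold change 1.74, SE 0.14, adjusted p = 6.6e-07). SLC6A17, a vesicular carrier of neutral amino acids, was a gene of both neuronal classes, with 100.5 and 114 CPM in neurons and 13.1 and 14.9 CPM outside them (log2 fold change 3.03, SE 0.14, adjusted p = 1.5e-06). SLC17A9, the vesicular nucleotide transporter, was low throughout and peaked in Pvalb at 10.3 and 10.9 CPM. The monoamine carrier SLC18A2 did not exceed 14.3 CPM in any subclass. SLC18B1, a polyamine carrier, ran the other way, from 9.12 and 9.69 CPM in neurons to 17.8 and 16.4 CPM in non-neuronal cells, with astrocytes highest at 37.9 and 33.2 CPM. Of the 9 vesicular genes 7 were tested, of which 2 were higher and 3 lower in glutamatergic neurons (all genes 17.1% and 15.8%), and 4 were higher and 2 lower in neurons (all genes 30.4% and 30.8%) than outside them.

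Plasma membrane glutamate transporters end the glutamate signal. SLC1A2 (GLT-1, EAAT2), the main glutamate uptake carrier of adult forebrain astrocytes, reached 15454 and 14791 CPM in astrocytes. The next subclass was OPC, at 1252 and 1106 CPM. The 4 defining astrocyte markers summed to 1274 and 1259 CPM in astrocytes, 46.5 and 30.5 CPM in OPC and at most 43.1 CPM in any neuronal subclass, and their part in these values was not tested. Neurons also carried the transcript, and not evenly. L6b held 547 and 714 CPM, L5NP 543 and 683 CPM, IT_C 484 and 665 CPM, L6CT 455 and 532 CPM, IT_A 126 and 151 CPM, and L5PT 72.8 and 100.3 CPM. The values of L6b, L5NP and IT_C overlapped across animals, as did those of L6CT and IT_C. Within each animal the subclasses stood in the order listed, which was not tested, and L5PT lay below all the others named. Glutamatergic neurons as a class were above GABAergic neurons (257 and 301 against 86.3 and 76.7 CPM, log2 fold change 1.91, SE 0.14, adjusted p = 5.6e-05), and neurons were below non-neuronal cells by 4.89 on the log2 scale (SE 0.12, adjusted p = 1.0e-07). SLC1A1 (EAAC1, EAAT3), the neuronal uptake carrier, was more evenly spread. OPC held 92.9 and 69.7 CPM, L5PT 86.5 and 79.1 CPM, IT_A 52.6 and 49.7 CPM, and Sst 45.7 and 47.2 CPM. It was higher in neurons than outside them (41.9 and 42.0 against 23.5 and 19.0 CPM, log2 fold change 1.09, SE 0.12, adjusted p = 1.2e-04). SLC1A6 (EAAT4), known from Purkinje cells, was low, with 9.08 and 9.92 CPM in L6b.

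GABA and glycine carriers clear inhibitory transmitter. SLC6A11 (GAT-3), the GABA carrier usually assigned to astrocytes, was highest there (394 and 348 CPM) and next in OPC (218 and 194 CPM). It was also found in interneurons, where Lamp5 (111 and 127 CPM) and Sst (127 and 94.7 CPM) stood above Pvalb (29.0 and 19.9 CPM). Glutamatergic neurons held 6.35 and 4.36 CPM, so that the class difference was -3.40 (log2, SE 0.18, adjusted p = 9.8e-06). SLC6A9 (GlyT1), the glial glycine carrier, was highest in oligodendrocytes at 107 and 73.3 CPM. The oligodendrocyte mean was 4.07-fold that of OPC. With endothelium left out, where it had 0 UMIs, the oligodendrocyte log2 fold change over the other non-neuronal subclasses was 3.09 (SE 0.20, adjusted p = 6.8e-09). SLC6A5 (GlyT2) did not exceed 1 CPM in any subclass.

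**Figure D4:**
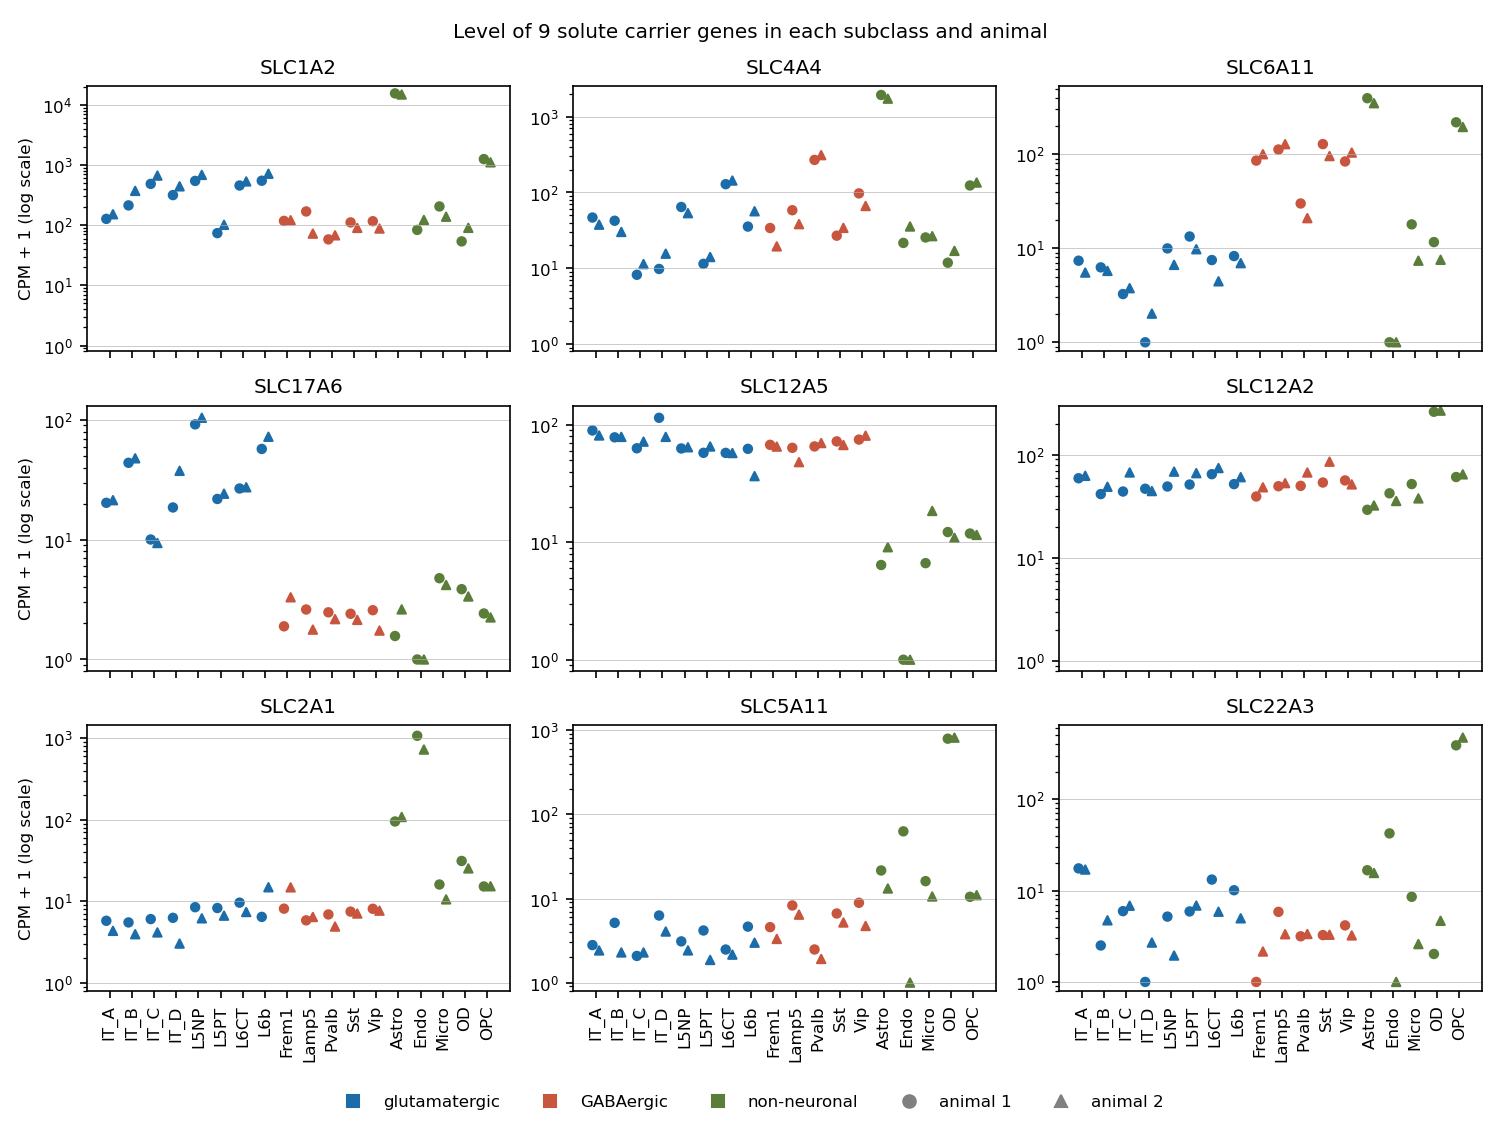
Level of 9 solute carrier genes in the 18 subclasses, plotted as CPM + 1 on a log axis, with a point for each of 2 animals. SLC6A11 is higher in each GABAergic than in any glutamatergic subclass and reaches 394 and 348 CPM in astrocytes; SLC12A5 is spread over all neuronal subclasses; and SLC2A1, SLC5A11 and SLC22A3 are highest in Endo, OD and OPC.

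The taurine carrier SLC6A6 was highest in endothelium (1134 and 1849 CPM, from 55 and 107 UMIs, or a mean of 903 CPM with TMM-scaled totals), with 511 and 513 CPM in microglia, 483 and 505 CPM in Pvalb and 29.7 and 23.5 CPM in astrocytes. The proline carrier SLC6A7, known from a subset of excitatory synapses, was higher in glutamatergic neurons (59.0 and 49.5 against 21.5 and 15.6 CPM, log2 fold change 1.67, SE 0.16, adjusted p = 1.6e-04). The low-affinity monoamine carriers differed in place. SLC22A3 (OCT3) reached 387 and 471 CPM in OPC, with endothelium the next non-neuronal subclass at 41.2 and 0 CPM (2 and 0 UMIs; log2 fold change over the other non-neuronal subclasses 6.08, SE 0.21, adjusted p = 1.0e-15). SLC29A4 (PMAT) was a neuronal gene, with 40.9 and 68.3 CPM in IT_B, 37.5 and 40.3 CPM in Frem1, 24.1 and 31.0 CPM in IT_A and 22.1 and 30.5 CPM in Vip. IT_B exceeded the other glutamatergic subclasses by 3.61 (log2, SE 0.24, adjusted p = 4.6e-08) and Frem1 the other GABAergic ones by 2.73 (SE 0.24, adjusted p = 2.0e-06). The high-affinity choline carrier SLC5A7, a mark of cholinergic neurons elsewhere, was at 6.64 and 16.2 CPM in OPC and at most 0.257 CPM in every other subclass. The high-affinity noradrenaline and serotonin carriers SLC6A2 and SLC6A4 stayed under 2 CPM in every subclass, and the dopamine carrier SLC6A3 did not exceed 2.23 CPM. Of the 14 genes on this list 10 were tested: 3 were higher and 5 lower in glutamatergic than GABAergic neurons (all genes 17.1% and 15.8%), and 3 were higher and 5 lower in neurons than outside them (all genes 30.4% and 30.8%).

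Cation-chloride cotransporters set the chloride gradient. SLC12A5 (KCC2), the neuron-specific chloride extruder, was at 71.0 and 70.8 CPM in neurons and at 9.02 and 10.0 CPM in non-neuronal cells, with no overlap (log2 fold change 3.02, SE 0.11, adjusted p = 4.2e-07). It did not pass between glutamatergic and GABAergic neurons (75.0 and 74.0 against 67.0 and 67.5 CPM, log2 fold change 0.27, SE 0.09, adjusted p = 0.059). With the animal as a block it did (adjusted p = 0.014), as did SLC12A8 (log2 fold change 0.34, adjusted p = 0.0087). SLC12A2 (NKCC1), which loads chloride, was higher outside neurons (137 and 142 against 51.9 and 64.0 CPM). Neurons lay below non-neuronal cells by 1.15 on the log2 scale (SE 0.14, adjusted p = 2.4e-04). Its non-neuronal level was largely that of oligodendrocytes, at 259 and 266 CPM, whereas the other 17 subclasses did not exceed 84.5 CPM. SLC12A8 was also highest in oligodendrocytes in the mean (253 and 255 CPM, with endothelium at 124 and 259 CPM from 6 and 15 UMIs). SLC12A4 (KCC1) was nearly absent from neurons (1.36 and 1.25 CPM) and present in endothelium (268 and 156 CPM, 13 and 9 UMIs, or a mean of 127 CPM with TMM-scaled totals), astrocytes (81.6 and 72.5 CPM) and OPC (71.6 and 65.9 CPM), a neuronal log2 fold change of -5.48 (SE 0.19, adjusted p = 4.2e-07). Without the animal as a block, none of the 8 chloride cotransporters tested was called between glutamatergic and GABAergic neurons (edgeR, all genes 17.1% higher and 15.8% lower). The block gave 2 higher and 0 lower, where 44.1% of all genes passed in either direction. Between neurons and non-neuronal cells 2 were higher and 5 lower in neurons (all genes 30.4% and 30.8%). Of 7 tested among the non-neuronal subclasses, 4 were higher and 1 lower in oligodendrocytes, where 22.0% and 13.7% of all genes were.

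SLC12A7 (KCC4) differed between the animals within 1 subclass. In oligodendrocytes it had 120 and 129 UMIs in the 2 libraries of animal 1, and 1 and 0 in those of animal 2. At least 1 UMI was found in 193 of 2280 oligodendrocyte nuclei of animal 1 and in 1 of 1767 of animal 2, or 50.9 and 0.262 CPM. In endothelium, by contrast, both animals held the transcript (247 and 190.1 CPM, 12 and 11 UMIs, or a mean of 132 CPM with TMM-scaled totals). Its lower level in neurons (1.92 and 1.83 against 24.8 and 2.68 CPM, log2 fold change -2.83, SE 0.64, adjusted p = 0.0063) rests in size on the oligodendrocytes of animal 1. This gene was picked out after its values were seen.

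Bicarbonate and proton exchangers regulate pH. SLC4A4 (NBCe1), the sodium bicarbonate cotransporter of astrocytes, stood at 1934 and 1729 CPM there. Among neurons it was highest in Pvalb (268 and 310.0 CPM) and L6CT (128 and 143 CPM), whose log2 fold changes over the rest of their class were 2.81 (SE 0.14, adjusted p = 4.1e-09) and 2.47 (SE 0.14, adjusted p = 8.9e-09). L5NP, at 63.4 and 52.4 CPM, was called higher as well (log2 fold change 0.94, SE 0.17, adjusted p = 0.0013), but not with equal nuclei per sum (0.28, adjusted p = 0.689). SLC4A10, a bicarbonate transporter of neurons, was broad within them (881 and 896 CPM) and 3.29 log2 units above non-neuronal cells (81.8 and 115 CPM, SE 0.16, adjusted p = 1.8e-06). The anion exchanger SLC4A3 behaved likewise, with 102 and 107 CPM in neurons and 9.29 and 11.7 CPM outside them. SLC26A4 (pendrin), an anion exchanger best known from the inner ear and thyroid, was concentrated in 2 glutamatergic subclasses. IT_D held 146 and 134 CPM, L5PT 86.9 and 96.0 CPM, and every other subclass at most 29.0 CPM. GABAergic neurons held 0.939 and 1.38 CPM, and the log2 fold change of glutamatergic over GABAergic neurons was 4.64 (SE 0.24, adjusted p = 9.1e-06). The sodium-proton exchangers (SLC9) ranged from SLC9A8, with 7.49% of its summed CPM in its highest subclass, Pvalb, to SLC9A3, with 48.1% in oligodendrocytes. SLC9A3 (NHE3) was highest in oligodendrocytes (485 and 509 CPM) and microglia (224 and 352 CPM, where oligodendrocyte markers summed to 432 and 489.5 CPM), with Lamp5 at 50.9 and 74.4 CPM above the other interneurons (log2 fold change 1.67, SE 0.18, adjusted p = 8.2e-06). SLC9A2 was highest in Frem1 (105 and 160.2 CPM), Lamp5 (78.3 and 83.7 CPM) and L5PT (79.2 and 96.1 CPM). The endosomal exchanger SLC9A9 was highest in microglia (981 and 1072 CPM) and OPC (759 and 735 CPM). Of 24 tested, 6 were higher and 8 lower in glutamatergic than GABAergic neurons (all genes 17.1% and 15.8%), and 13 were higher and 5 lower in neurons than outside them (all genes 30.4% and 30.8%).

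Potassium-dependent sodium-calcium exchangers (the SLC24 genes) each had their own pattern. SLC24A2 (NCKX2) was highest in oligodendrocytes, at 3819 and 3751 CPM, and high in several neuronal subclasses, with 2244 and 2110.5 CPM in Pvalb and 2214 and 2257 CPM in L6CT but 265 and 213 CPM in IT_B. Oligodendrocytes exceeded the other non-neuronal subclasses by 4.35 (log2, SE 0.12, adjusted p = 3.2e-17). SLC24A4 (NCKX4) reached 1767 and 1803 CPM in microglia, 17.8-fold astrocytes, the next non-neuronal subclass (log2 fold change over the others 5.91, SE 0.17, adjusted p = 2.7e-17). Among neurons it was higher in glutamatergic (132 and 129 CPM) than GABAergic ones (13.9 and 14.8 CPM, log2 fold change 3.31, SE 0.13, adjusted p = 3.9e-06), and IT_A (233 and 194 CPM) and IT_D (144 and 287 CPM) led. SLC24A3 (NCKX3) was the reverse, at 44.0 and 37.5 CPM in glutamatergic and 242 and 234 CPM in GABAergic neurons (log2 fold change -2.42, SE 0.12, adjusted p = 9.1e-06). The exception among glutamatergic subclasses was IT_B, at 184 and 167 CPM, 2.54-fold the next (log2 fold change 3.10, SE 0.19, adjusted p = 2.5e-08). IT_A and IT_B thus held opposite members of the pair, with SLC24A3 at 40.5 and 26.9 CPM in IT_A and SLC24A4 at 27.7 and 19.0 CPM in IT_B.

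Sugar carriers supply energy. SLC2A1 (GLUT1), the glucose carrier of the blood-brain barrier, was highest in endothelium at 1072 and 726 CPM (52 and 42 UMIs), 8.91-fold astrocytes (94.4 and 107 CPM). With TMM-scaled totals its endothelial mean was 540 CPM, 5.25-fold astrocytes. The endothelial log2 fold change was 4.45 (SE 0.24, adjusted p = 4.9e-12). SLC5A11, a sodium-coupled inositol and sugar carrier, was the gene with the largest neuronal deficit among those named: 2.78 and 1.84 CPM in neurons against 359 and 369 CPM outside them (log2 fold change -7.23, SE 0.15, adjusted p = 6.1e-08). Oligodendrocytes held 792 and 816 CPM. The next non-neuronal subclass was endothelium at 61.8 and 0 CPM (3 and 0 UMIs), and oligodendrocyte markers summed to 453.5 CPM in the endothelium of animal 1 and 17.3 CPM in that of animal 2; their part in it was not tested. SLC2A8 was also highest in oligodendrocytes (408 and 386 CPM). SLC2A9, a urate carrier, was highest in microglia (138 and 164 CPM), and among glutamatergic subclasses it was highest in L6b (45.4 and 41.7 CPM, 3.08-fold the next, log2 fold change 3.74, SE 0.36, adjusted p = 4.3e-06). Of 24 sugar and monocarboxylate genes tested, 4 were higher and 2 lower in glutamatergic than GABAergic neurons (all genes 17.1% and 15.8%), and 8 were higher and 8 lower in neurons than outside them (all genes 30.4% and 30.8%).

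Of 31 amino acid carriers tested, 1 was higher and 8 lower in glutamatergic than GABAergic neurons and 22 were not called. Of all genes 17.1% were higher and 15.8% lower. With the animal as a block 3 carriers were higher and 13 lower, where 44.1% of all genes passed in either direction. In the other class comparison 9 were higher and 12 lower in neurons than in non-neuronal cells (all genes 30.4% and 30.8%). Astrocytes alone held the peptide carrier SLC15A2 (123 and 138 CPM, 29.7-fold the next non-neuronal subclass), the cationic amino acid carrier SLC7A2 (144 and 132 CPM) and the small neutral carrier SLC7A10 (35.1 and 46.1 CPM), each at most 6.32 CPM elsewhere. With endothelium left out of the fit, the astrocyte log2 fold changes of SLC15A2 and SLC7A10 were 6.64 (SE 0.27, adjusted p = 2.5e-11) and 6.68 (SE 0.41, adjusted p = 8.8e-09). SLC7A5 (LAT1), the large neutral amino acid carrier of the blood-brain barrier, was highest in endothelium (165 and 311 CPM, 8 and 18 UMIs), 4.95-fold astrocytes, or at a mean of 144 CPM and 2.94-fold with TMM-scaled totals. SLC7A14, a lysosomal member, was the gene with the largest neuronal excess among those named (159 and 161 against 11.6 and 13.9 CPM, log2 fold change 3.77, SE 0.14, adjusted p = 5.0e-07), and L6CT led with 407 and 382 CPM. The glutamine carrier SLC38A3 (SNAT3) was highest in astrocytes (128 and 132 CPM). Low levels in L5NP (24.8 and 27.8 CPM) and Pvalb (23.4 and 23.0 CPM) stood above the rest of their class, by 2.40 (log2, SE 0.20, adjusted p = 6.6e-07) and 1.91 (SE 0.20, adjusted p = 4.8e-06).

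SLCO genes encode carriers of organic anions, among them thyroid hormone. SLCO1C1, a thyroxine carrier, was at 637 and 668 CPM in astrocytes, 34.1 and 35.5 CPM in OPC, and 41.2 and 0 CPM (2 and 0 UMIs) in endothelium. SLCO1A2 was found in astrocytes at 167 and 139.6 CPM and in no other subclass above 5.95 CPM. SLCO2B1 was highest in microglia (1656 and 1461 CPM) and next in endothelium (866 and 380.2 CPM, 42 and 22 UMIs), where all 4 microglial markers had 0 UMIs. SLCO3A1 was neuronal, at 112 and 91.7 against 15.97 and 22.5 CPM. The nucleoside carriers SLC29A3 and SLC28A3 were highest in microglia (239.5 and 250.3 CPM) and OPC (50.2 and 36.7 CPM). SLCO4C1 was low and held by Sst (31.0 and 45.3 CPM) and Pvalb (22.5 and 26.6 CPM). In this list of 19 tested, 3 were higher and 4 lower in glutamatergic than GABAergic neurons (all genes 17.1% and 15.8%). With the animal as a block 3 were higher and 7 lower, where 44.1% of all genes passed in either direction. Between neurons and non-neuronal cells 8 were higher and 7 lower in neurons (all genes 30.4% and 30.8%).

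Metal carriers move iron, zinc, copper, manganese and magnesium. Of 22 tested, 8 were higher and 1 lower in microglia than in the other non-neuronal subclasses (all genes 18.5% and 11.2%), and 6 were higher and 13 lower in neurons than outside them (all genes 30.4% and 30.8%). Between the neuronal classes 7 were higher and 3 lower in glutamatergic neurons (all genes 17.1% and 15.8%). With the animal as a block 8 were higher and 7 lower, where 44.1% of all genes passed in either direction. SLC11A1 (NRAMP1), the phagosomal iron and manganese carrier of macrophages, was at 90.5 and 119.6 CPM in microglia, with endothelium next at 20.6 and 0 CPM (1 and 0 UMIs; log2 fold change 6.62, SE 0.38, adjusted p = 3.5e-12). The iron exporter SLC40A1 (ferroportin) was at 66.0 and 20.7 CPM in microglia, a wide spread between the animals, and the magnesium carrier SLC41A3 at 69.8 and 52.6 CPM. The zinc carrier SLC39A12 was in astrocytes (353 and 312 CPM) and at 1.36 and 1.59 CPM in neurons. SLC39A10, another zinc carrier, was highest in endothelium (3009 and 1953 CPM, 146 and 113 UMIs, or a mean of 1491 CPM with TMM-scaled totals), followed by microglia (599.7 and 556 CPM) and IT_C (472 and 501 CPM). The manganese exporter SLC30A10 was highest among glutamatergic subclasses in L5PT (31.2 and 24.9 CPM, log2 fold change 1.45, SE 0.18, adjusted p = 4.8e-05).

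Of 16 vitamin, choline and lipid carriers tested, 6 were higher and 5 lower in neurons than outside them (all genes 30.4% and 30.8%). Between the neuronal classes 1 was higher and 0 lower in glutamatergic neurons (all genes 17.1% and 15.8%). With the animal as a block 1 was higher and 2 lower, where 44.1% of all genes passed in either direction. Of 5 phosphate, sulfate and carboxylate carriers tested, 0 were higher and 4 lower in neurons than outside them (all genes 30.4% and 30.8%). The choline carrier SLC44A1 reached 3147 and 3169 CPM in oligodendrocytes, 9.0-fold endothelium (24 and 12 UMIs), while neurons held up to 675 CPM (IT_B). The oligodendrocyte log2 fold change was 3.68 (SE 0.12, adjusted p = 2.7e-16). The fatty acid carrier SLC27A1 was highest in astrocytes (54.5 and 49.8 CPM). The dicarboxylate carrier SLC13A3 was at 209 and 225 CPM in astrocytes, 59.9-fold the next non-neuronal subclass, and the phosphate carrier SLC20A2 at 147 and 138 CPM in oligodendrocytes. SLC20A1, its relative, was highest in IT_D (95.0 and 75.6 CPM) and higher in glutamatergic than GABAergic neurons (32.9 and 35.1 against 10.1 and 10.2 CPM, log2 fold change 1.87, SE 0.13, adjusted p = 3.1e-05).

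Mitochondrial carriers (the SLC25 family) pass metabolites over the inner mitochondrial membrane. Of 29 tested, 1 was higher and 11 were lower in glutamatergic than GABAergic neurons, where 17.1% of all genes were higher and 15.8% lower. With the animal as a block 3 were higher and 13 lower, where 44.1% of all genes passed in either direction. Between neurons and non-neuronal cells 10 were higher in neurons and 9 lower (all genes 30.4% and 30.8%). Of 28 tested among the non-neuronal subclasses, 10 were higher and 0 lower in astrocytes. Of all genes tested, 23.5% were called higher and 11.1% lower in astrocytes. SLC25A48 was the most restricted, with 362 and 179 CPM in astrocytes and at most 11.3 CPM elsewhere. SLC25A33, a pyrimidine nucleotide carrier, was highest in astrocytes at 128 and 154 CPM, with 68.0 and 71.1 CPM in Pvalb. Genes of the SLC35 family, which feed nucleotide sugars to the Golgi or have no settled substrate, had 22 members tested between the classes. SLC35F1 was highest in OPC at 445 and 440.4 CPM, 1.57-fold the mean of Pvalb, the next subclass. SLC35F3 was at 529 and 605 CPM in Vip and 568 and 534 CPM in L6CT, SLC35F4 at 76.7 and 70.3 CPM in Frem1, and SLC35D2 at 46.8 and 46.4 CPM in Sst, 6.14-fold the next interneuron subclass. Endothelium held more SLC35D2, at 329.8 and 173 CPM (16 and 10 UMIs, or a mean of 151 CPM with TMM-scaled totals). Of the 22, 4 were higher and 6 lower in glutamatergic than GABAergic neurons (all genes 17.1% and 15.8%), and 9 were higher and 7 lower in neurons than outside them (all genes 30.4% and 30.8%).

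The second comparison asked which solute carriers set each subclass apart from the other subclasses of its class. Over all 18 subclasses at once, 201 of 221 tested genes varied, beside 82.9% of all genes. Percentages after each count below are the shares of all genes called in that direction, and 188 solute carriers were tested among non-neuronal, 152 among GABAergic and 215 among glutamatergic subclasses.

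Among non-neuronal subclasses, oligodendrocytes had 85 calls (all genes 35.7%), of which 50 were higher (22.0%) and 35 lower (13.7%), led by SLC5A11, SLC9A3, SLC6A9, SLC24A2 and SLC44A1. Astrocytes had 79 (34.6%), of which 47 were higher (23.5%) and 32 lower (11.1%), and SLC25A48, SLC13A3, SLCO1A2, SLC15A2 and SLC7A10 led. OPC had 69 (30.2%), of which 48 were higher (22.7%) and 21 lower (7.55%). The genes higher in OPC than in the other non-neuronal subclasses included SLC16A10, a carrier of aromatic amino acids and thyroid hormone. It was at 31.8 and 28.0 CPM in OPC (log2 fold change without endothelium 2.40, SE 0.27, adjusted p = 3.2e-06). Its highest means over all subclasses were neuronal, at 54.6 CPM in L5NP and 53.5 CPM in Vip. Microglia had 58 (29.7%), of which 37 were higher (18.5%) and 21 lower (11.2%). Endothelium had 30 (12.1%), of which 13 were higher (5.55%) and 17 lower (6.53%). Its largest fold change was that of SLC35F2 (227 and 51.8 CPM, 11 and 3 UMIs, log2 fold change 5.11, SE 0.72, adjusted p = 2.3e-05), which rests on few UMIs and differed between the animals.

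Among GABAergic subclasses, Pvalb had 58 calls (32.7%), of which 39 were higher (17.7%) and 19 lower (15%). Lamp5 had 41 (19.5%), of which 22 were higher (10.8%) and 19 lower (8.67%), with the inositol carrier SLC2A13 among the leading genes (204 and 268 CPM, log2 fold change 1.35, SE 0.14, adjusted p = 5.8e-06). Sst had 38 (24.2%), of which 18 were higher (13.8%) and 20 lower (10.4%). SLCO4A1, an organic anion carrier, was among the Sst genes at 20.9 and 34.6 CPM (log2 fold change 2.29, SE 0.33, adjusted p = 1.1e-04). Vip had 25 (18.2%), of which 13 were higher (10.0%) and 12 lower (8.17%), and SLC35F3 was 2.82-fold the next interneuron subclass (log2 fold change 2.33, SE 0.09, adjusted p = 5.3e-10). Frem1 had 17 (16.6%), of which 10 were higher (9.42%) and 7 lower (7.18%), and SLC35F4 was 3.01-fold the next (log2 fold change 2.70, SE 0.20, adjusted p = 3.3e-07).

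Among glutamatergic subclasses, IT_B had 48 calls (16.6%), of which 32 were higher (10.9%) and 16 lower (5.73%). IT_D had 39 (13.2%), of which 21 were higher (7.5%) and 18 lower (5.66%), with SLC26A4 first (log2 fold change 3.30, SE 0.16, adjusted p = 2.2e-09). IT_A had 38 (16.5%), of which 17 were higher (10.7%) and 21 lower (5.74%). The proton exchanger SLC9A5 was shared by IT_A (30.3 and 27.1 CPM), IT_B (25.6 and 28.2 CPM) and IT_D (26.4 and 25.8 CPM), which overlapped. Its IT_D call did not pass with equal nuclei per sum (edgeR, log2 fold change 1.67, adjusted p = 0.0623). L5NP had 38 (14.9%), of which 26 were higher (8.94%) and 12 lower (6.01%). L5PT had 36 (14.2%), of which 25 were higher (9.38%) and 11 lower (4.77%), and SLC26A4 and SLC9A2 led (log2 fold changes 2.64 and 2.09). L6CT had 29 (12.2%), of which 18 were higher (7.67%) and 11 lower (4.51%). SLC7A14 and SLC35F2 were among its genes, with log2 fold changes of 2.02 (SE 0.07, adjusted p = 1.9e-10) and 2.24 (SE 0.13, adjusted p = 1.7e-08). IT_C had 26 (9.61%), of which 14 were higher (6.3%) and 12 lower (3.31%), and SLC9C2, of the proton exchanger family, led at 145 and 145 CPM (log2 fold change 1.44, SE 0.10, adjusted p = 3.7e-07). L6b had 26 (10.0%), of which 15 were higher (4.81%) and 11 lower (5.2%), among them the zinc carrier SLC39A8 at 27.2 and 21.8 CPM, 2.87-fold the next. With the animal as a block, IT_A had 71 calls (all genes 30%), IT_B 73 (25.9%), IT_C 48 (17%), L5PT 65 (23.4%) and L6CT 70 (21.2%), which included every gene called in those subclasses without it. The share of the solute carriers was below that of all genes in Vip and Frem1 and above it in the other subclasses, and these shares were not tested against each other.

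**Figure D5:**
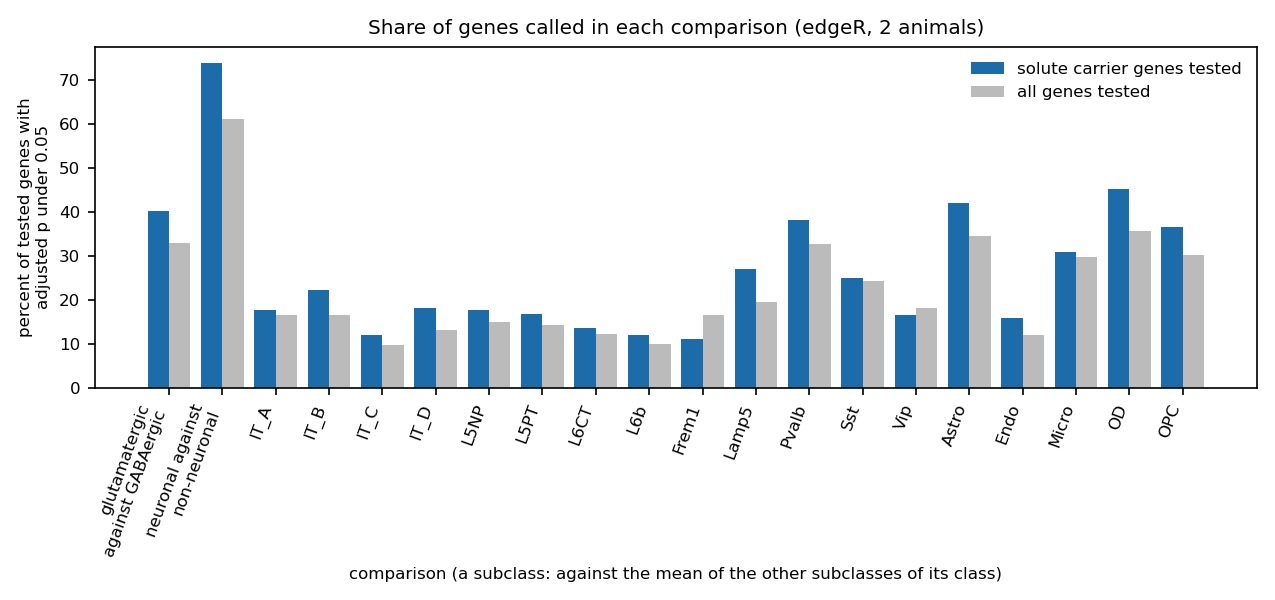
Percent of tested solute carrier genes and of all tested genes with an adjusted p under 0.05 (edgeR, 2 animals) in the 2 class comparisons and in each subclass against the mean of the other subclasses of its class. The share of the solute carriers is below that of all genes in Vip and Frem1 and above it in the other comparisons drawn.

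A subclass is set here against the mean of the log levels of the others, so a subclass with 0 UMIs for a gene widens the fold change of the rest. This touched genes that the small endothelial sums missed, such as SLC13A3, SLC25A48 and SLCO1A2 in astrocytes. Without endothelium their astrocyte log2 fold changes were 7.13 (SE 0.19, adjusted p = 3.3e-13), 7.1 (SE 0.34, adjusted p = 2.0e-10) and 6.77 (SE 0.20, adjusted p = 1.1e-12).

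Genes that work beside the carriers were read from a list of 22, of which 13 had a symbol and were tested. GLUL, the glutamine synthetase that uses glutamate taken up by glia, was at 477 and 478 CPM in non-neuronal cells, 31.0 and 32.9 CPM in GABAergic and 10.5 and 10.8 CPM in glutamatergic neurons (neuronal over non-neuronal log2 fold change -4.58). ABAT, which degrades GABA, was at 250.3 and 243.2 CPM in GABAergic and 25.8 and 19.1 CPM in glutamatergic neurons (log2 fold change -3.34), and at 193.4 and 188.2 CPM outside neurons. Among subunits of the sodium pump, whose gradient drives the sodium-coupled carriers, ATP1B2 was lower in neurons, with a log2 fold change of -3.77, and ATP1B1 was higher, at 1.50. Of 3 kinases that act on chloride cotransporters, WNK2 was higher (1.78) and STK39 lower (-1.53) in neurons, and WNK1 did not pass (log2 fold change -0.15, adjusted p = 0.16). In all, 4 of the 13 were higher and 7 lower in neurons than outside them (all genes 30.4% and 30.8%), and 2 were higher and 6 lower in glutamatergic than GABAergic neurons (all genes 17.1% and 15.8%).

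Between the animals, which allow no test, 11 of 198 genes with at least 20 UMIs in 5 or more subclasses kept 1 direction in each of them (5.56%, against 7.0% of all genes), 9 higher in animal 1 and 2 higher in animal 2. The largest median log2 ratios, animal 2 over animal 1, were -0.95 for SLC22A16 over 6 subclasses, and 1.25 for SLC13A1 over 7. A ratio of 4-fold or more between animals was rare, at 3 of 2764 pairs of gene and subclass (0.109%, against 0.249% of all genes' pairs). They included SLC12A7 in oligodendrocytes (above) and SLC26A6 in L6b, with 17 and 3 UMIs.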

How the data were processed

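Nuclei of V1 from 2 opossums were profiled with 10x 3′ chemistry. The authors deposited UMI counts per gene and nucleus, made with Cell Ranger including intronic reads on ASM229v1 with Ensembl gene models extended at the 3′ end. The submitters' processing notes name Cell Ranger 6.1.1, the matrix headers 7.1.0. Subclass labels, made by the authors from clusters and canonical markers, and the doublet calls came from the deposited table. The authors kept nuclei by gene and UMI limits and left some ambiguous clusters out. Of the labelled nuclei, 798 carried a Scrublet doublet call and stayed in.

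Here the counts were summed per animal and subclass. Sums of classes, and of subclasses within a class, were compared by edgeR 4.0.16 (R 4.3.3) quasi-likelihood tests with TMM scaling and filterByExpr, fitted across all genes, two-sided, with Benjamini-Hochberg adjustment over all genes at 0.05. Levels are CPM. Class sums held 8583404 to 98745378 UMIs. Of the members, 238 were tested in at least 1 fit. P-values measure the spread between the 2 animals, pooled over all sums of a fit and shared in part across genes. The sums of a fit are treated as independent. On simulated counts with 3-fold changes in 200 genes, 92% were recovered in the Astro comparison (12885 genes) and 100% in the class comparison (19002 genes). Unchanged genes called were 6 and 8. The simulated sums shared 1 profile and 1 fixed spread and had no animal effect, and the changed genes were at 20 CPM or more. These rates therefore need not hold for the data.

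The same 2 animals gave every sum, so the sums are paired by animal. Deviations of same-animal sums correlated at 0.216 to 0.465 in the class fit, 0.166 to 0.483 among GABAergic, 0.0229 to 0.577 among glutamatergic and 0.0252 to 0.191 among non-neuronal subclasses. The fit without the animal is reported, and the block was an alternative, along with DESeq2 1.42.0, RLE scaling, no filter, no doublets, predicted labels (96.8% equal to the deposited ones) and equal nuclei per sum.

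The genes and lists were chosen with earlier results of these data known. Named genes were all those of the vesicular, glutamate, GABA/glycine/monoamine and chloride lists; the 8 largest changes per direction of each class comparison and the 3 (non-neuronal 5) per subclass, with at least 20 CPM; the 3 largest per direction between animals; up to 4 of each other list by their share in 1 subclass; and any partner or marker. Some genes that the rule names are not reported here. SLC12A7 and SLC26A6 between animals were named after their values were seen. Python 3.11.15 with pandas 2.3.3 was used for the sums. Sequences and coordinates were not used here.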

Additional observations from a re-analysis of the deposited data

Results flagged for a closer look

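In 138 nuclei of each animal that the authors labelled as ambiguous non-neuronal and left out of the subclasses, 3 solute carriers with at least 10 UMIs over both animals stood at 3-fold or more of their highest labelled subclass in each animal. The share of all genes that met this rule is not given here, so the count shows nothing about solute carriers as a group. The sulfate carrier SLC13A4 was at 35.73 CPM (14 UMIs) in animal 1 and 89.68 CPM (35 UMIs) in animal 2, where microglia, its highest labelled subclass, held 5.66 and 4.78 CPM. SLC47A1, an exporter of organic cations, was at 45.94 CPM (18 UMIs) and 10.25 CPM (4 UMIs), against at most 5.45 and 3.19 CPM in labelled subclasses. SLC6A20, a proline carrier, was at 10.21 CPM (4 UMIs) and 41.0 CPM (16 UMIs), against at most 1.76 and 1.98 CPM. In the same nuclei the 4 fibroblast markers (COL1A1, COL3A1, DCN and LUM) summed to 30.6 and 28.2 CPM (12 and 11 UMIs), where labelled subclasses other than endothelium did not exceed 8.1 CPM and endothelium held 0 and 17.3 CPM. The 5 pericyte markers summed to 51.0 and 64.1 CPM (124 and 111 CPM in astrocytes), the 2 endothelial markers to 23.0 and 76.9 CPM (52.5 and 66.8 CPM in astrocytes) and the 3 ependymal or choroid markers to 17.9 and 69.2 CPM (40.7 and 24.1 CPM in L5NP), the last with 0 and 26 UMIs of TTR, and the part of such cells in these values was not tested. The nuclei also carried GFAP at 390 and 361 CPM and SST at 406 and 377 CPM.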

How the results depend on the processing

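No direction of a result reversed under any alternative that was run. Of 713 values of the 96 named fold changes under an alternative with a test, 706 kept their side of the threshold. The 7 others kept their direction. Under the mean of subclass coefficients, SLC25A48, SLCO1A2, SLC13A3, SLC15A2 and SLC7A2 no longer passed between neurons and non-neuronal cells (adjusted p = 1.0). Their log2 fold changes ran from -1.08 to -2.34. That setting weighs each non-neuronal subclass equally, and these genes had 0 UMIs in endothelium in both animals. The part of this in the loss was not tested. The same setting called 119 genes between neurons and non-neuronal cells in place of 173, 107 of them shared. Between glutamatergic and GABAergic neurons it called 103 in place of 94, 71 of them shared. With equal nuclei per sum, SLC9A5 in IT_D (log2 fold change 1.67, adjusted p = 0.0623) and SLC4A4 in L5NP (log2 fold change 0.28, adjusted p = 0.689) no longer passed. Without replicate 1 or 2, which leaves no test, 21 and 29 of the 96 fold changes moved by more than the spread between the animals and none reversed.

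Equal nuclei per sum (29 in the non-neuronal fit and in the fit over all subclasses, 53 in the glutamatergic fit) cut the genes called from 150 to 37 among non-neuronal subclasses, from 104 to 44 among glutamatergic subclasses and from 201 to 83 over all 18 subclasses, with fewer genes left to test. Genes of 1 direction between animals fell from 11 to 5 for library 2B over 1A, 5 for 2A over 1B and 6 for 2B over 1B. DESeq2 called 16 genes in Vip in place of 25. Leaving out animal 1 or 2 left 91 or 94 genes highest in a non-neuronal subclass, in place of 92, and leaving out endothelium, chosen after seeing the data, left 86. With endothelium out of the fit, 152 genes were called among non-neuronal subclasses, in place of 150, but the calls per subclass rose from 79 to 96 in Astro (71 of them shared), 58 to 83 in Micro (56), 85 to 102 in OD (72) and 69 to 79 in OPC (58). With the animal as replicate block, the calls rose from 94 to 122 between glutamatergic and GABAergic neurons, from 173 to 185 between neurons and non-neuronal cells and from 104 to 146 among glutamatergic subclasses. Of the genes called without it, 1 each was lost in IT_D, L6b, Astro and OPC and none in the other comparisons. RLE scaling moved the median log2 fold change of all genes in endothelium from -0.65 to -0.48 and by under 0.1 elsewhere. TMM-scaled totals lowered endothelial means by 1.63- to 1.69-fold, that of SLC6A6 to 903 CPM. Depth limits endothelium most, where a gene under about 20 CPM has a single UMI or none.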
